A study of Mus musculus with 3 samples.

Results

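The cadherin and protocadherin genes of the array were compared across the time points of melan-a NRAS61K cells under doxycycline. Members were all probe sets whose single gene symbol began with Cdh and a digit or with Pcdh, which gave 101 probe sets of 56 genes among 18194 genes on the array. The cells are a mouse melanocyte line carrying the NRAS61K oncogene, and all 3 arrays analysed here held RNA of this line from cultures with doxycycline at 1 µg/ml, for 6, 14 or 28 days. Each time point had 1 array, no untreated array was analysed here, and the labels do not say which gene doxycycline acts on or whether the dishes of the 3 time points were started together. The series title places these cells in a study of oncogene-induced senescence and of tumorigenic cells that arise from senescent ones, and the members were read with attention to cadherin switching.

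Cadherins are calcium-dependent adhesion proteins that span the membrane and pair with cadherins of the neighbouring cell. Classical cadherins hold β-catenin and p120-catenin on their cytoplasmic tail and, through α-catenin, actin. Melanocytes in skin adhere to keratinocytes through E-cadherin, encoded by Cdh1, and P-cadherin, encoded by Cdh3, and the replacement of E-cadherin by N-cadherin, encoded by Cdh2, is known as cadherin switching in melanoma. Protocadherins form the largest branch of the family, do not bind β-catenin, and are known mostly from neurons, where the clustered α, β and γ genes give single cells different surface identities.

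A promoter window was found for 20 of the 56 genes in the RefSeq table of build GRCm38.p6. Windows of 3 members are shown, those with an entry and a probe set that exceeded the background at day 6, day 28 or both and whose measured values differed over 2-fold between them. At day 28 Cdh15 and 2 of 3 probe sets of Pcdh9 were higher. Pcdh10 is shown for 2 of its 6 probe sets, which were above the background at day 6 and below it at day 28, where only bounds of at least 1.27-fold and at least 1.07-fold hold. Each sequence is the 250 bases before the start site, 5′ to 3′ on the strand of the gene. The Cdh15 window is chr8:122848124-122848373 on the + strand, the Pcdh9 window chr14:93890680-93890929 on the - strand and the Pcdh10 window chr3:45378148-45378397 on the + strand. Capitals mark the E-box CANNTG, which basic helix-loop-helix factors bind, the CCAAT box and the GC box GGGCGG, each searched on both strands.
Cdh15: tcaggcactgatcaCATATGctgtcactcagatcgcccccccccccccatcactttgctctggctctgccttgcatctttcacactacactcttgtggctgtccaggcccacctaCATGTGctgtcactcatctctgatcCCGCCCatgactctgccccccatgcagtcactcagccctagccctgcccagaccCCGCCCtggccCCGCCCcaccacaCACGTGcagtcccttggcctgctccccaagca
Pcdh9: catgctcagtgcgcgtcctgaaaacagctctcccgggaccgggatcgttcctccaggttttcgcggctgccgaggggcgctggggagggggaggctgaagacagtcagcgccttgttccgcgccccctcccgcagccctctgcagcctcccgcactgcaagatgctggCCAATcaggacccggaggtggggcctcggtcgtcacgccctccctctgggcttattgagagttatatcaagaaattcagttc
Pcdh10: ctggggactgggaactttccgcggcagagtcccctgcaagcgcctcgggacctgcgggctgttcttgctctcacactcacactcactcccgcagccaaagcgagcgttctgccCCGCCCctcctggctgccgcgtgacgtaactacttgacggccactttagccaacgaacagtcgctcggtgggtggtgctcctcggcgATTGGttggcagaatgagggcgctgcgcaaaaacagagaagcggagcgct
The Cdh15 window held 3 E-boxes and 3 GC boxes. The Pcdh9 window held 1 CCAAT box and no E-box or GC box, and a second annotated start of Pcdh9 lay 10 bases downstream with a largely shared window. The Pcdh10 window held 1 CCAAT box and 1 GC box and no E-box. Among 32841 windows of this length, 66.2% held an E-box, 33.9% a CCAAT box and 32.7% a GC box. Over the 23 windows of members, 11 held an E-box, 15 a CCAAT box and 8 a GC box. The E-box form CAGGTG, which Snail and ZEB repressors bind, was in 3 of the 23 windows and in 17.2% of all windows. CATGTG, the core of the M-box of melanocyte promoters, was in 3 of 23 and in 12.3%, once in Cdh15. The SOX word ACAAAG was in 5 of 23 and in 16.5%. The windows are short, and these matches are a description of letters and not of binding.

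Levels below are the deposited log2 values, on which a difference of 1 is 2-fold. The base of 2 was inferred from hybridization controls of known concentration, whose slopes on log2 concentration were 0.79, 0.80 and 0.80, so folds assume this base. A background was set on every array from 96 probe sets of 62 genes taken as silent in pigment cells, at their 90th percentile, which came to 22.69, 22.59 and 22.76 in order of time. The 3 arrays had been quantile normalized, so a difference is relative to all other probe sets. The means of added poly-A controls were 23.47, 23.69 and 23.91 in order of time, and the 3′ minus 5′ difference of Actb was 0.58, 0.76 and 0.75; the part of either in the differences below was not tested. A single array stands for each time point, so the spread between cultures is unknown and no difference below has a test; having only 3 arrays limits precision. The only error at hand is how far probe sets of the same gene disagree, whose SD was 0.30 for day 14 minus day 6, 0.24 for day 28 minus day 14 and 0.32 for day 28 minus day 6. Fewer cells with a transcript and less of it per cell cannot be told apart in such bulk RNA. Each gene is given by its brightest probe set on average, and levels of different genes are not compared.

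Of the 56 genes, 25 lay above the background on at least 1 array and 17 on all 3. This was 44.6% of the members against 66.0% of all genes. The 31 others, among them 12 of 23 clustered protocadherins, 7 of 11 type II cadherins and 7 of 12 nonclustered protocadherins, ranged from 7.44 to 22.55 and are given no fold. In order of time, 17, 25 and 22 members exceeded the background. Over all genes these counts were 11378, 11507 and 11356. The members detected at 14 days included 8 that were not above the background at 6 days, namely Cdh1, Cdh15, Pcdh9, Pcdh10, Pcdhb3, Pcdhb7, Pcdhb9 and Pcdhb13. Of these, Pcdh10 and Pcdhb13 exceeded the day 14 background of 22.59 but would not have exceeded the higher one of day 6.

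Between days 6 and 14 the members that stood 2-fold apart were all higher at day 14. Above the background on both arrays were 17 members, of which 4 were 2-fold higher and 0 lower, against 4.43% higher and 3.34% lower among all such genes. The 4 were Cdh5, Cdh19, Pcdhb16 and Pcdhb17. Counting also the 8 members that were above the background on 1 of the 2 arrays, 9 of 25 were higher, against 5.43% of all genes so counted, and 0 lower, against 3.94%. Those 8 entered only through day 14, where they were high, so the larger count is no support for a direction. For Cdh15, Pcdh9 and Pcdhb3 among the 9 the bound itself was under 2-fold. The median log2 difference of the 17 members was 0.67, against -0.04 for all such genes, and 13 of the 17 were above 0, against 46.4% of all such genes. Of the 17, 7 were clustered protocadherins, all higher by 0.48 to 1.29, whose values may not be independent readings. The 4 type II cadherins ranged from -0.14 to 2.58 and the 3 nonclustered protocadherins from -0.24 to 0.66. The 2 type I cadherins ranged from -0.11 to 0.23, and Cdh13 was at -0.79.

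Between days 14 and 28 the members went both ways. Of 22 members above the background on both arrays, 3 were 2-fold higher, namely Cdh5, Cdh13 and Pcdh9, against 1.48% of all such genes, and Cdh19 alone was 2-fold lower, against 1.05%. With the members above it on 1 array included, 3 of 25 were higher, against 2.22%, and 2 lower, against 1.44%, the second being Cdh1. Cdh1 entered only through day 14, where it was high. The median of the 22 was -0.12, against 0.04 for all such genes. For day 28 against day 6, 3 of 17 members above the background on both arrays were 2-fold higher, against 4.97%, and 0 lower, against 3.52%. They were Cdh5, Cdh19 and Pcdhb20. With 5 more members above it at day 28 alone, 7 of 22 were higher, against 6.56%, and 0 lower, against 4.06%. Those 5 entered only through day 28, where they were high, so this larger count is no support for a direction. The comparisons share arrays, so an error of 1 array enters 2 of them.

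**Figure D1:**
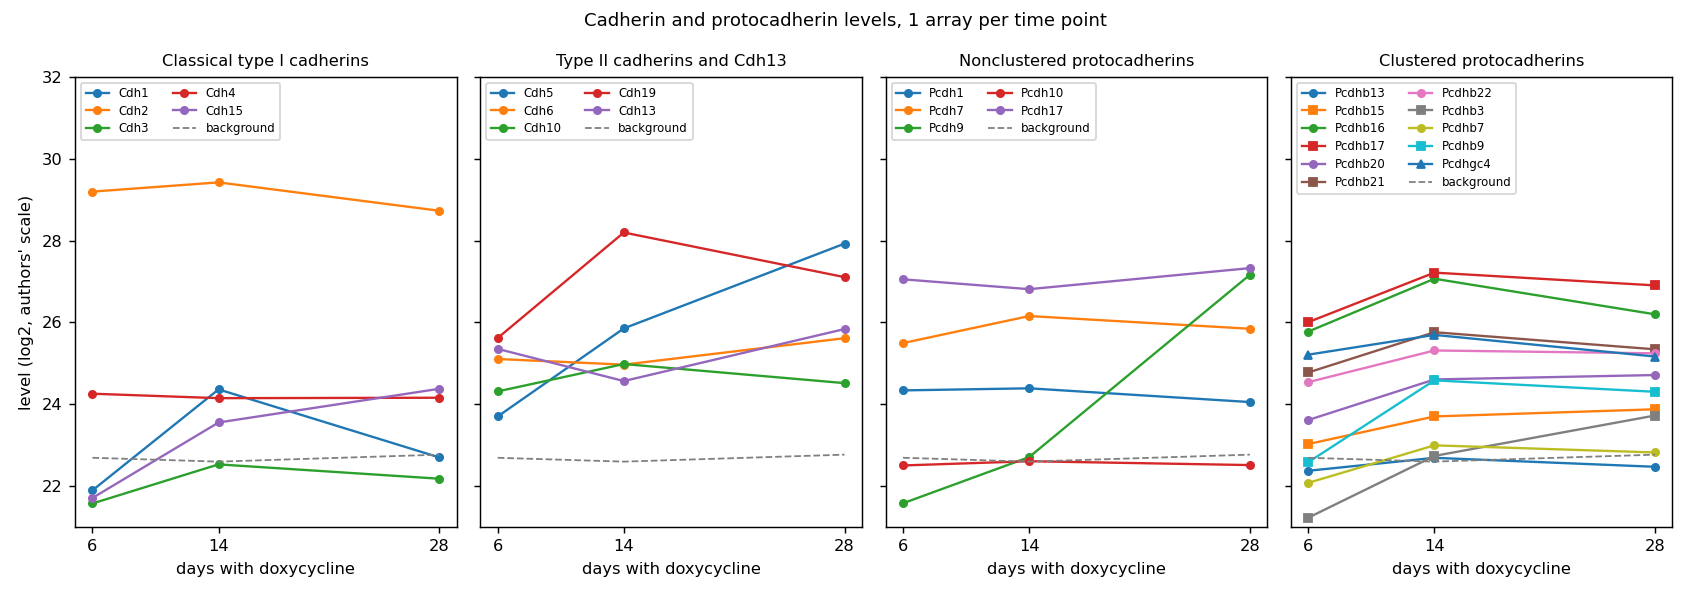
Levels (log2, authors' scale) of the members above the background and of Cdh3 against days with doxycycline, 1 array per point, with the background as a dashed line. Cdh1 stands above the background at day 14 alone (24.36), Cdh5 climbs from 23.70 to 27.93, Pcdh9 from 21.58 to 27.16, and Cdh2 stays between 28.73 and 29.43.

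Of the genes of cadherin switching, Cdh1 was detected at the middle time point alone and Cdh2 at all of them. Cdh1 had a level of 21.89 at day 6, 24.36 at day 14 and 22.70 at day 28. The outer arrays lay below the background, at day 28 by a small margin (22.70 against 22.76), so Cdh1 stood at least 3.19-fold higher at day 14 than at day 6 and at least 3.02-fold higher than at day 28. It has 1 probe set on the array, so this peak rests on 1 probe set and the day 14 array. Cdh2 had levels of 29.20, 29.43 and 28.73 in order of time. It was 1.62-fold lower at day 28 than at day 14, a log2 difference of -0.69, and its other probe set gave 28.75, 28.75 and 27.86 with a difference of -0.89. Both probe sets were thus lowest at day 28, with differences past the 0.24 disagreement between probe sets but short of 2-fold. From day 6 to day 28 they gave -0.47 and -0.89. Cdh3 lay below the background on every array, at 21.57, 22.53 and 22.18, and its other probe set at 21.89, 20.81 and 21.11. An exchange of Cdh1 for Cdh2 between any 2 time points would need them to differ in opposite directions. Day 28 against day 14 gave lower values for both genes, and day 14 against day 6 gave at least 3.19-fold more Cdh1, with log2 differences of 0.23 and -0.01 for the 2 probe sets of Cdh2. Day 28 against day 6 gives no direction for Cdh1, which lay below the background on both arrays.

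Of the other classical type I members, Cdh15 was higher with time and Cdh4 was level. Cdh15 encodes M-cadherin, known from muscle precursors. Its levels were 21.71, below the background, then 23.55 and 24.38, at least 1.82-fold higher at day 14 and at least 3.22-fold higher at day 28 than at day 6. Its second step was 0.82, and it too has a single probe set. Cdh4, which encodes R-cadherin of retina and brain, stood at 24.26, 24.15 and 24.16, a spread smaller than the disagreement between probe sets. Its other 2 probe sets lay below the background on all arrays, and averaging all 3 gave -4.29 in place of -0.11 for day 14 against day 6.

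Among type II cadherins, Cdh5 and Cdh19 differed most. Cdh5 encodes VE-cadherin, the adhesion protein of endothelial junctions, and had levels of 23.70, 25.85 and 27.93. It stood 4.45-fold higher at day 14 than at day 6 and 4.21-fold higher again at day 28, or 18.7-fold over the course. A second Cdh5 probe set lay below the background on all arrays (21.07, 21.56 and 22.08). Of 16 endothelial markers other than Cdh5, 2 were above the background, Eng and Egfl7, and the other 14 were below it on all 3 arrays, among them Pecam1 (19.02, 19.70 and 19.61) and Kdr (21.73, 21.66 and 22.28). Both were higher at day 28 than at day 6, Eng by 0.29 and Egfl7 by 1.03, or 2.04-fold. So 1 of the 2 compared was 2-fold higher, against 6.56% of all genes, and 0 lower, against 4.06%. The median level of the 16 markers was 21.55, 21.08 and 21.29 in order of time and their mean 21.46, 20.92 and 21.77, below the background each time. The mean at day 14 takes in Erg, which read 9.41 there and 18.87 and 19.34 on the other arrays, below the background on all 3.

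Cdh19, a type II cadherin known from Schwann cell precursors and other neural crest derivatives, had levels of 25.62, 28.20 and 27.11. It stood 5.98-fold higher at day 14 than at day 6 and 2.13-fold lower at day 28 than at day 14, so day 28 stayed 2.81-fold above day 6. Markers of the pigment cell had a like course. Of 10 melanocyte markers, 8 were compared between days 6 and 14, with 6 of them 2-fold higher, against 5.43% of all genes, and 0 lower, against 3.94%. Between days 14 and 28, 0 of 8 were higher, against 2.22%, and 4 lower, against 1.44%. Both counts include Oca2, above the background at day 14 alone, whose first step was at least 1.03-fold and whose second allows no fold. Their mean level was 23.87, 25.94 and 25.14. Of 8 Schwann and glial markers 6 were on the array, with mean levels of 24.22, 25.19 and 24.88, which cover unlike genes. Between days 6 and 14, 2 of 5 compared were 2-fold higher, S100b and Erbb3, against 5.43% of all genes, and 0 lower, against 3.94%. For day 28 against day 6 the same 2 of 5 were higher, against 6.56%. Mbp was lower there, by at least 2.25-fold, against 4.06%. The part of these melanocyte and glial markers in the Cdh19 and Cdh1 values was not tested. Cdh6 (25.10, 24.97 and 25.61) and Cdh10 (24.31, 24.98 and 24.51) stayed within 2-fold on their brightest probe sets. The other 3 probe sets of Cdh10 lay below the background on all arrays, and averaging all 4 gave -2.35 in place of 0.67 for day 14 against day 6. The second probe set of Cdh6 gave differences of -0.50 and 0.56 for the 2 steps, against -0.14 and 0.65 on the first.

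Cdh13 encodes T-cadherin, which is anchored to the membrane by a lipid and has no cytoplasmic tail. Its levels were 25.35, 24.56 and 25.84, lowest at the middle time point. The first step was -0.79 and the second 1.27, or 2.42-fold. A second probe set above the background gave -0.73 and 0.95, so both showed the dip, and the second one stayed short of 2-fold on the way up. Cdh13 thus had its lowest level on the array where Cdh1 and Cdh19 had their highest.

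**Figure D2:**
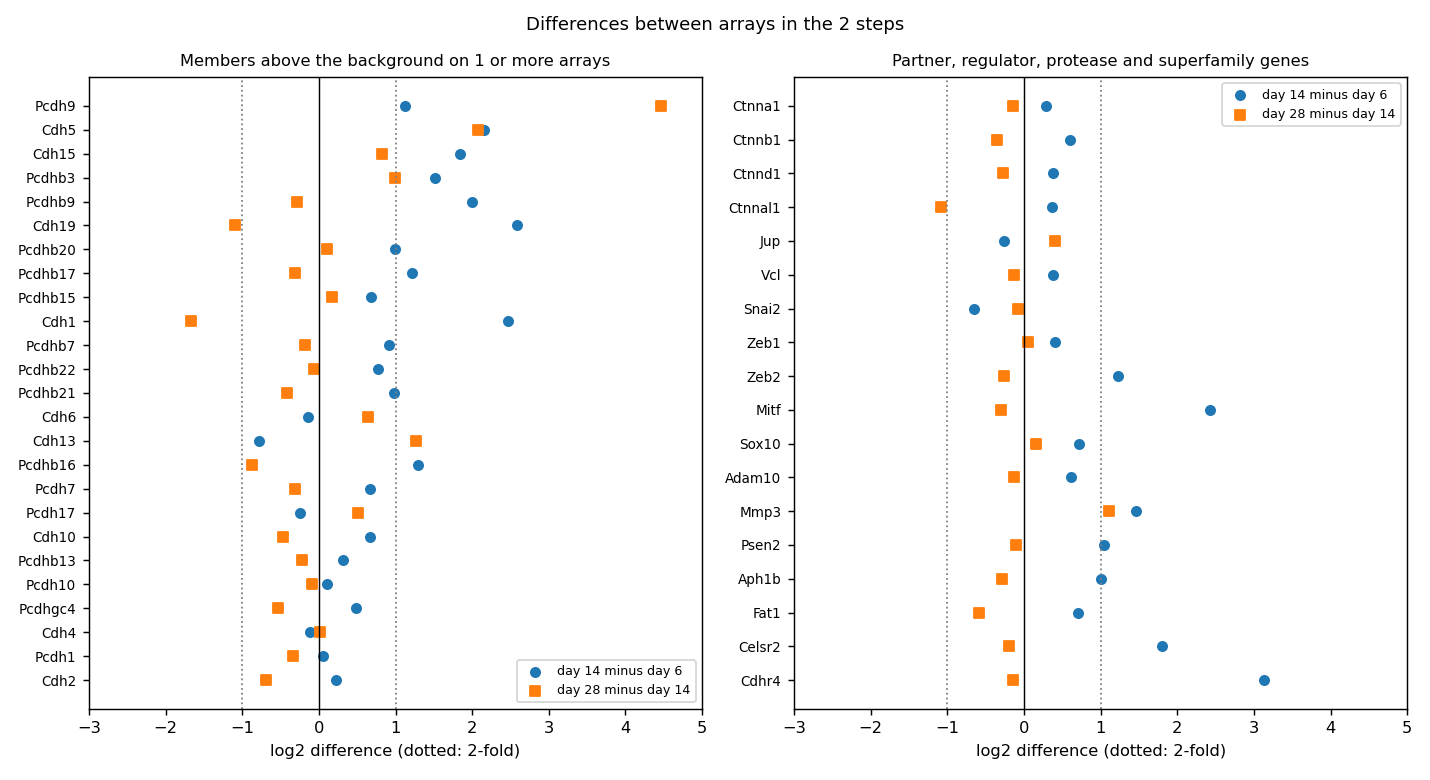
Log2 differences of the first step (circles, day 14 minus day 6) and the second step (squares, day 28 minus day 14) for 25 members, left, and for 18 partner, regulator, protease and superfamily genes, right, with dotted lines at 2-fold. Pcdh9 has the widest second step (4.46), Cdh1 and Cdh19 have a first step past 2-fold and a second one below -1, and Ctnna1, Ctnnb1, Ctnnd1 and Jup lie inside the dotted lines, while the second step of Ctnnal1 (-1.08) lies outside. Measured values are plotted also where an array was below the background. The day 14 array enters both steps, once with each sign.

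Nonclustered protocadherins differed by gene and, for some genes, by probe set. Pcdh9, a δ protocadherin known from brain, had levels of 21.58, 22.70 and 27.16 on its brightest probe set. Its first 2 arrays lay below and just above the background, so the first step was at least 1.01-fold, and day 28 was 22.0-fold higher than day 14. A second probe set gave 21.39, 22.06 and 24.94, at least 5.09-fold higher at day 28 than at day 14. The remaining one gave 23.76, 23.78 and 23.90 and differed by 0.14 over the course. So 2 of the 3 probe sets of Pcdh9 were far higher at day 28 and 1 was level. Where on the transcripts these probe sets lie was not analysed here.

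Pcdh10, a δ protocadherin known as a gene silenced by methylation in tumours, gave different readings by probe set. The brightest one lay at the background, with 22.50, 22.60 and 22.51. Of the other 5, 3 lay below the background on all arrays and are given no fold. The remaining 2 were above the background at day 6, at 23.11 and 22.86, and both stood below it at day 14 (22.17 and 22.06) and day 28 (20.28 and 20.22). Against the background they were at least 1.27-fold and at least 1.07-fold lower at day 28 than at day 6, so most of the measured difference lies below the background.

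The remaining nonclustered protocadherins stayed within 2-fold on their main probe set. Pcdh7 had levels of 25.49, 26.16 and 25.84, and its other 2 probe sets gave first steps of 1.41 and 0.66 and second steps of -0.72 and -1.02. All 3 of its probe sets were highest at day 14. Pcdh17, which encodes a δ protocadherin of developing brain, had levels of 27.05, 26.81 and 27.33, and its other probe set 26.31, 26.09 and 26.10. Pcdh1, a protocadherin of airway epithelium, had levels of 24.34, 24.39 and 24.05.

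**Figure D3:**
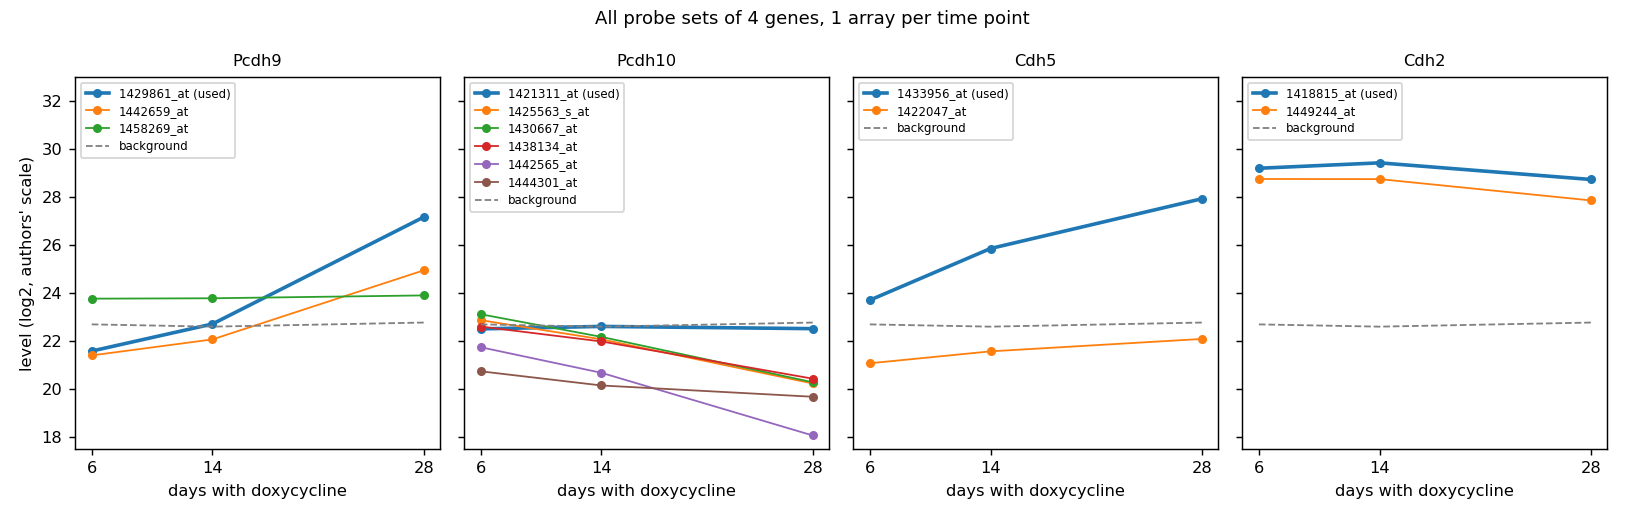
Levels (log2, authors' scale) of every probe set of Pcdh9, Pcdh10, Cdh5 and Cdh2 against days with doxycycline, 1 array per point, with the thick line for the probe set used and the dashed line for the background. For Pcdh9 2 of 3 probe sets climb and 1 is level near 23.8, for Pcdh10 2 of 6 begin above the background at day 6 and lie below it later, and both probe sets of Cdh2 are lowest at day 28.

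The clustered protocadherins were higher at 14 days than at 6 days in all 7 members above the background on both arrays, by 0.48 to 1.29 on the log2 scale. Of all genes above the background on both arrays, 46.4% were higher. Another 4, Pcdhb3, Pcdhb7, Pcdhb9 and Pcdhb13, were above the background at day 14 but not at day 6, which largely fixes their direction. On this array 22 of the 23 clustered members are β genes, each made of a single large exon with its own promoter, and the other is Pcdhgc4 of the γ cluster. Of the 22 β genes, 10 were above the background on at least 1 array, and 6 of these on all 3 arrays. Pcdhb16 had levels of 25.78, 27.07 and 26.20, and stood 2.45-fold higher at day 14 than at day 6. Of its other 2 probe sets, 1 gave 1.06 for that step. The other was above the background at day 14 alone and allows only a bound of at least 1.13-fold. Pcdhb17 had levels of 26.01, 27.22 and 26.91, and stood 2.31-fold higher at day 14. Pcdhb9 lay at 22.58 at day 6, just below the background, and at 24.58 and 24.30 later, at least 3.72-fold higher at day 14 and at least 3.06-fold higher at day 28.

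Another 4 β genes were above the background on all arrays and lay closer together. Pcdhb20 had levels of 23.61, 24.60 and 24.71, and stood 2.14-fold higher at day 28 than at day 6. Pcdhb21 had levels of 24.78, 25.76 and 25.34, with first steps of 0.98 and 1.00 on its 2 probe sets. Pcdhb22 had levels of 24.54, 25.31 and 25.24. Pcdhb15 had levels of 23.02, 23.70 and 23.87. All 4 were lowest at day 6, and none of their second steps reached 2-fold.

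Near the background, Pcdhb3 had levels of 21.22, 22.73 and 23.72, with day 28 at least 2.05-fold over day 6. Pcdhb7 (22.08, 22.99 and 22.82) and Pcdhb13 (22.37, 22.69 and 22.47) lay near the background on every array. Pcdhgc4, a C-type gene of the γ cluster, had levels of 25.21, 25.69 and 25.16, so its first step of 0.48 was undone in the second. In the second step the 10 β genes were less uniform, with 3 above and 7 below 0 and a range from -0.87 to 0.99. Of all genes above the background on both arrays of this step, which leaves out Pcdhb13, 55.4% were above 0. At day 28 the 6 β genes above the background on all arrays stood above their day 6 values, by 0.42 in Pcdhb16 to 1.10 in Pcdhb20. Of all genes above the background at both day 6 and day 28, 50.6% were higher at day 28.

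Position in the cluster was not used to choose members. Ordered along chromosome 18, 3 of the first 11 β genes and 7 of the last 11 were above the background. β genes resemble each other closely in sequence, and some of their probe sets carry a suffix for shared sequence, so their values may not be independent readings; their sharing of signal was not tested. Chromosome 18 as a whole had 53 of 313 genes (16.9%) 2-fold apart in at least 1 comparison among those above the background, against 15.2% of all genes. Among members above the background, these were 5 of 13 on chromosome 18 and 11 of 25 on all chromosomes. Both counts include members below the background at day 6, such as Pcdhb3 and Pcdhb9 on chromosome 18. Such members entered through the arrays where they were high, so these counts are no support for a difference from all genes.

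**Figure D4:**
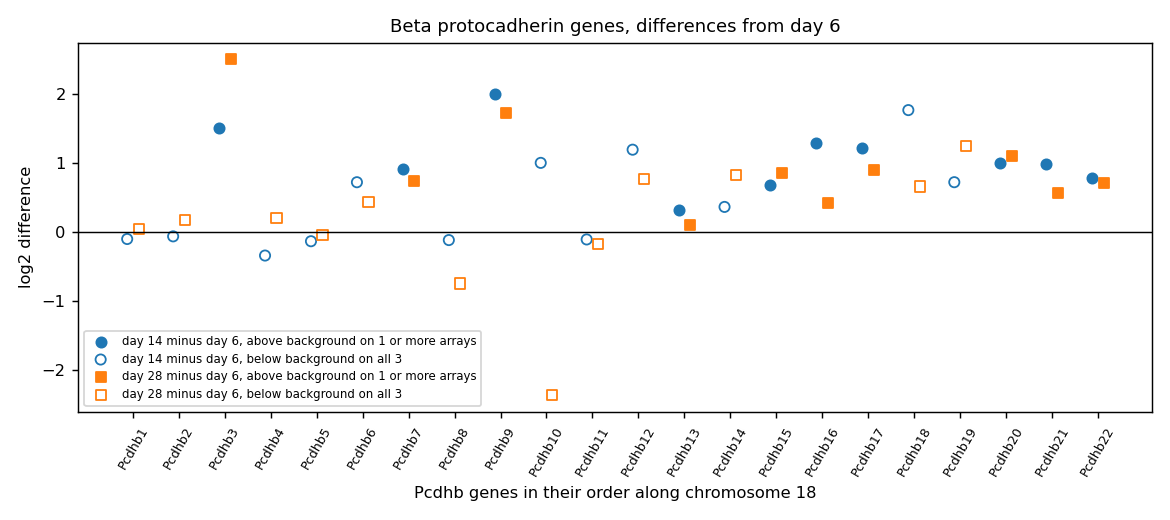
Log2 differences from day 6 for the 22 β protocadherin genes in chromosomal order, circles for day 14 and squares for day 28, filled where the gene lay above the background on at least 1 array and open where it lay below on all 3. The filled symbols all lie above 0, for 4 of the 10 genes with a day 6 value below the background, and open symbols rest on values below the background, such as Pcdhb10 at -2.37.

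Catenins and other partners of cadherins at the junction were detected widely and varied little. Of 21 such genes, 17 entered each comparison. None was 2-fold apart for day 14 against day 6 or day 28 against day 6, where 9.37% and 10.6% of all genes were, and 1 was lower for day 28 against day 14, against 1.44% of all genes. That gene was Ctnnal1, an α-catenin-like gene, at 2.11-fold. Ctnnb1, which encodes β-catenin, had levels of 29.42, 30.02 and 29.66, Ctnna1, for α-catenin, was at 29.71 at day 6 and differed by 0.28 and -0.15 in the 2 steps, and Ctnnd1, for p120-catenin, had levels of 26.09, 26.47 and 26.20. Jup, for plakoglobin, had levels of 23.40, 23.14 and 23.55. The first 3 were highest at day 14 and Jup was lowest there, and the widest of these differences was 0.59, for Ctnnb1 in the first step.

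Among 20 measured regulators linked to cadherin switching, 13 were compared, of which 2 were 2-fold higher and 0 lower at day 14 than at day 6, against 5.43% and 3.94% of all genes. They were Zeb2, whose protein binds E-boxes and can repress Cdh1, and Mitf, the melanocyte master regulator. Zeb2 had levels of 26.85, 28.07 and 27.81, and Mitf 23.67, 26.10 and 25.80. Both were thus highest on the array where Cdh1 was highest. Snai2, also a repressor of Cdh1, had levels of 27.94, 27.29 and 27.22, and Zeb1 24.35, 24.76 and 24.81. Snai1 (19.51, 20.04 and 20.88) and Twist1 (18.53, 19.90 and 19.54) lay below the background throughout. For day 28 against day 14 none of the 13 was 2-fold apart, against 3.67% of all genes, and for day 28 against day 6 only Mitf was, 4.38-fold higher, against 10.6% of all genes apart.

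Of 15 measured proteases that cut cadherins or their stubs, 14 were compared, with 3 higher and 0 lower at day 14 than at day 6, against 5.43% and 3.94% of all genes. Mmp3, a matrix protease that can shed E-cadherin, had levels of 25.62, 27.08 and 28.20, 5.97-fold higher at day 28 than at day 6. The γ-secretase subunit genes Psen2 and Aph1b were 2.06-fold and 2.01-fold higher at day 14 than at day 6. Adam10, whose protein sheds E- and N-cadherin, had levels of 28.46, 29.08 and 28.95, within 2-fold. For day 28 against day 14 and against day 6, 1 of the 14 was higher, Mmp3 in both, and 0 lower. Of all genes 2.22% and 6.56% were higher in these comparisons, and 1.44% and 4.06% lower.

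Among other genes of the cadherin superfamily, 23 of 27 were on the array and 10 entered day 14 against day 6, with 3 higher and 0 lower, against 5.43% and 3.94% of all genes. Cdhr4, a cadherin-related gene of little known function, had levels of 24.61, 27.74 and 27.59, 8.74-fold higher at day 14 than at day 6. Celsr2, which takes part in planar cell polarity, had levels of 24.70, 26.50 and 26.30, 3.48-fold higher. Cdhr2, a microvillus cadherin, was below the background at day 6 and just above it later (22.70 and 22.89), so its bound was at least 1.01-fold. For day 28 against day 14 none of 8 was 2-fold apart, against 3.67% of all genes. For day 28 against day 6 the same 3 were higher, against 6.56%, with a bound of at least 1.15-fold for Cdhr2. In that comparison 1 was lower, against 4.06%, and this was Ret, a receptor kinase with cadherin repeats, at least 1.04-fold lower, since it lay just above the background at day 6 (22.82) and below it at day 28.

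Markers of other cell types were read for the cultures as a whole. Of 11 epithelial and keratinocyte markers on the array, 3 were above the background at each time point, and their mean level was 22.03, 21.89 and 21.94. Fibroblast markers had 6, 5 and 6 of 9 above the background with mean levels of 23.13, 23.44 and 23.40, leukocyte markers 4 of 7 each time with 23.01, 23.02 and 23.53, and neuronal markers 3, 4 and 4 of 8 with 22.39, 22.46 and 22.75. The leukocyte mean covers unlike genes. Lyz2, for lysozyme, was 6.09-fold higher at day 14 and 6.70-fold higher at day 28 than at day 6, and Cd68, of lysosomes of macrophages, had levels of 25.09, 23.98 and 25.99, lowest at day 14 like Cdh13. The other detected leukocyte markers, Adgre1 (23.62, 23.35 and 23.49) and Csf1r (24.36, 24.32 and 24.04), stayed within 2-fold. Of the neuronal markers, 4 lay below the background on all arrays, among them Nefm and Snap25, and the others went different ways. Nefl, a neuronal filament gene, was at 21.76, 22.89 and 26.25, the same order as Pcdh9, while Tubb3, a neuronal tubulin gene, was at 27.07, 25.91 and 25.59, 2.79-fold lower at day 28 than at day 6. Map2 (25.76, 26.58 and 26.55) and Syt1 (23.38, 23.04 and 23.66) stayed within 2-fold. The part of these genes in the Cdh13 and Pcdh9 values was not tested.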

How the data were processed

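Total RNA was measured on Affymetrix arrays from biotinylated cRNA, per the labels' protocols. The authors deposited 1 log2 value per probe set for 45101 probe sets. Sorting made the 3 columns identical, so the authors had quantile normalized them; the summarization method, log base and added constant are not given in the sources used here, and an added constant was assumed, which cancels in differences. Of the probe sets, 34958 had 1 gene symbol, 932 several and 9211 none in the platform annotation. Symbols were updated by gene identifier, which altered no member's symbol.

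Each gene was read from its brightest probe set on average. A gene was compared when either array of a pair exceeded the background, and an array at or below it gave a lower bound ("at least"). Named genes were all members above the background, Cdh1, Cdh2 and Cdh3, and the listed catenin and repressor genes. Genes 2-fold apart were also named from the partner, regulator, protease and superfamily lists, but not all of those from the marker lists. Adam10, Eng, Egfl7, Erg, Pecam1, Kdr, Nefl, Nefm, Snap25, Tubb3, Lyz2, Cd68, Oca2 and Pcdhb10 were picked after values or sequences were seen. So were S100b, Erbb3, Mbp, Map2, Syt1, Adgre1, Csf1r, Col3a1, Pdgfra, Dcn and the promoter words CCAAT and GGGCGG. The members, lists and alternatives were chosen with earlier results of these data known. Promoters came from RefSeq (GRCm38.p6), in which 1668 of 1668 overlapping windows of opposite strands were reverse complements. The 2-fold call was tested on simulated arrays with known changes in genes far above the background. Changes in genes near the background, the choice of probe set and the bounds were not tested this way. Python 3.11.15, numpy 2.4.6 and pandas 2.3.3 were used.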

Additional observations from a re-analysis of the deposited data

Results flagged for a closer look

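Probe sets that name several genes were left out of the members, and 6 of them name genes of the α protocadherin cluster. Of these, 2 lay above the background on every array, each naming 14 genes. One had levels of 23.96, 23.72 and 25.28 in order of time, and the other 23.39, 22.81 and 24.03. They were picked out as signal in data that no comparison used. Day 28 was higher than day 14 by 1.56 and 1.22 on the log2 scale, while day 14 differed from day 6 by -0.24 and -0.58. The other 4 lay below the background on all arrays. Which α genes gave the signal cannot be told from these probe sets. The day 6 to day 14 step of the α probe sets was below 0 where that of the β genes was above 0, and this contrast was not tested.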

How the results depend on the processing

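With 1 array per time point, leaving out an array ends a comparison. No paired analysis was possible because each time point has 1 array. The counts of members 2-fold apart, in the order day 14 against day 6, day 28 against day 14 and day 28 against day 6, were 9, 5 and 7. They came to 16, 10 and 12 with no background filter, where all genes gave 11.7%, 7.35% and 12.3%, and to 17, 10 and 11 at a 1.5-fold threshold, where all genes gave 27.7%, 12.0% and 28.0%. The averaging of probe sets, the 75th percentile background, dim values raised to the background, equal hybridization controls, updated symbols and, added after the data were seen, the probe set with the highest single value kept each count within 1.5 times. The counts of 0 lower did not hold under every setting. Day 14 against day 6 had 10 higher and 1 lower, Cdh26, with the 75th percentile background. It had 14 higher and 2 lower with no background filter, and 16 and 1 at 1.5-fold. Day 28 against day 6 had 11 higher and 1 lower with no background filter. With the probe set of the highest single value it had 7 higher and 1 lower, Pcdh10. Equal hybridization controls shifted all genes by -0.08, 0.01 and -0.08. With dim values raised to the background the first count was 6, without Cdh15, Pcdh9 and Pcdhb3. Of 78 differences of members, 24 moved by more than the disagreement between probe sets when probe sets were averaged and 16 when dim values were raised, and no 2-fold difference turned its sign under any alternative run. Averaging took Cdh10 from 0.67 to -2.35 and Cdh4 from -0.11 to -4.29 for day 14 against day 6, and to -2.67 and -4.00 for day 28 against day 6, through probe sets below the background on all arrays. Values near the background, such as those of Pcdh10, Pcdhb7 and Pcdhb13, are limited by signal.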

Other observations

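By chromosome, 8 members lie on chromosome 8, and 4 of these were above the background, namely Cdh1, Cdh5, Cdh13 and Cdh15. All 4 were 2-fold apart in at least 1 comparison, against 88 of 635 genes (13.9%) above the background on that chromosome. Of these 4, Cdh1 and Cdh15 were below the background at day 6 and entered through the arrays where they were high. This grouping was chosen after the values were seen. Their time courses were not alike: Cdh1 was highest at day 14, Cdh13 lowest at day 14, and Cdh5 and Cdh15 highest at day 28.

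Over both steps, 15 of the 25 members above the background had no 2-fold step, against 88.4% of all such genes. By measured values Cdh5 and Pcdh9 were 2-fold higher in both steps, against 0.241% of all such genes, but the first step of Pcdh9 has a bound of only 1.01-fold, so this holds for Cdh5 alone. Cdh1 and Cdh19 were 2-fold higher and then 2-fold lower, against 0.607%. These shares include members that entered through the array where they were high.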
